A study of Mus musculus with 10 samples.

Results

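The genes described here are 40 lysosomal genes, chosen by name from the families that make, acidify and fill the lysosome. All 40 of 40 were found by symbol in the expression table, and in 40 the normalized read count averaged 10 or more across the 10 libraries. They are 40 of the 12455 genes tested, out of 57010 identifiers. They were measured by RNA sequencing in macrophages that had been grown in culture from mouse bone marrow. Marrow came from wild-type (WT) mice or from mice without WASp (WKO), the product of Was and an activator of branched actin assembly in blood cells. All cultures had received 20 ng/mL M-CSF, the macrophage growth factor, over 7 days. Unconfined cells gave 2 WT and 2 WKO libraries. Cells held for 1 h under a ceiling 3 µm high gave 3 WT and 3 WKO libraries, and each library started from 5 ng of RNA. Nothing in the labels says that libraries of a group came from separate cultures or animals, so p-values measure the spread between these libraries, which may be technical. The title of the series names nuclear envelope rupture and inflammation, and the comparisons below are the genotype and confinement contrasts of that design.

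Lysosomes degrade what macrophages engulf, using acid hydrolases that work at low pH. The vacuolar ATPase (V-ATPase) makes that pH: its V1 sector burns ATP in the cytosol, and its V0 sector carries protons through the membrane. The transcription factors TFEB, TFE3 and MITF bind short sequences around CACGTG in promoters of many lysosomal genes, and the kinase complex mTORC1 holds TFEB and TFE3 in the cytosol when nutrients are plentiful. Much of this control acts on the location of the factors and not on their transcript levels.

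Values are normalized read counts, that is, reads divided by 1 size factor per library. Library depth was 13295701 to 19329908 reads. A detection floor of 3 reads equals a normalized read count between 2.35 and 3.60, for counting error only. Every member was far above it. Was itself was 1308 and 1639 in WT unconfined libraries, 154 and 141 in WKO unconfined libraries, 1618, 1570 and 1649 in WT confined libraries, and 98.9, 96.9 and 125 in WKO confined libraries. The genotype labels thus separated in all 10 libraries, with a residual Was signal in the knockout. All 10 of 10 macrophage markers were above the floor in all libraries. Their summed normalized count was 199299 to 228288 in WT and 269919 to 337479 in WKO. Lyz2 was the largest part of this sum in each library. The sum does not describe each marker, and Itgam was lower in WKO than in WT unconfined libraries. In bulk RNA, a lower number of cells of a type and less RNA per cell cannot be told apart.

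Some of the lysosomal genes were among the most abundant transcripts of these cells. Psap, which encodes the precursor of the saposins that help hydrolases act on sphingolipids, had the highest mean of all genes tested. Ctsb, a cysteine cathepsin, and Gpnmb, a membrane glycoprotein of phagocytes, came next. The 40 genes took 8.25% to 9.79% of all reads of a library. Psap, Ctsb and Gpnmb made up most of that share. In WT unconfined replicate 1 they took 2.07%, 1.80% and 2.17% of reads, of 9.48% for the 40 genes. Mean levels ran from 684 for Tfeb to 300059 for Psap. Per kilobase of merged exons, mean levels over the 10 libraries were 109351 ± 6475 for Psap, 46093 ± 3153 for Ctsb, 39152 ± 6437 for Gpnmb and 33286 ± 5202 for the aspartic protease gene Ctsd (SD, n = 10). The regulators Tfeb (121 ± 23.9), Tfe3 (221 ± 27.2) and Mitf (284 ± 46.4) and the lysosomal calcium channel gene Mcoln1 (132 ± 14.6) lay at the low end of the same scale. The median within-group SD was 0.12 on the log2 scale for the 40 genes, against 0.16 for the 5202 tested genes with a mean of at least 500. It was 0.23 for all tested genes, so the SD was smaller at higher levels. Most of the 40 genes lay far above 500, and the comparison was not matched for level.

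**Figure D1:**
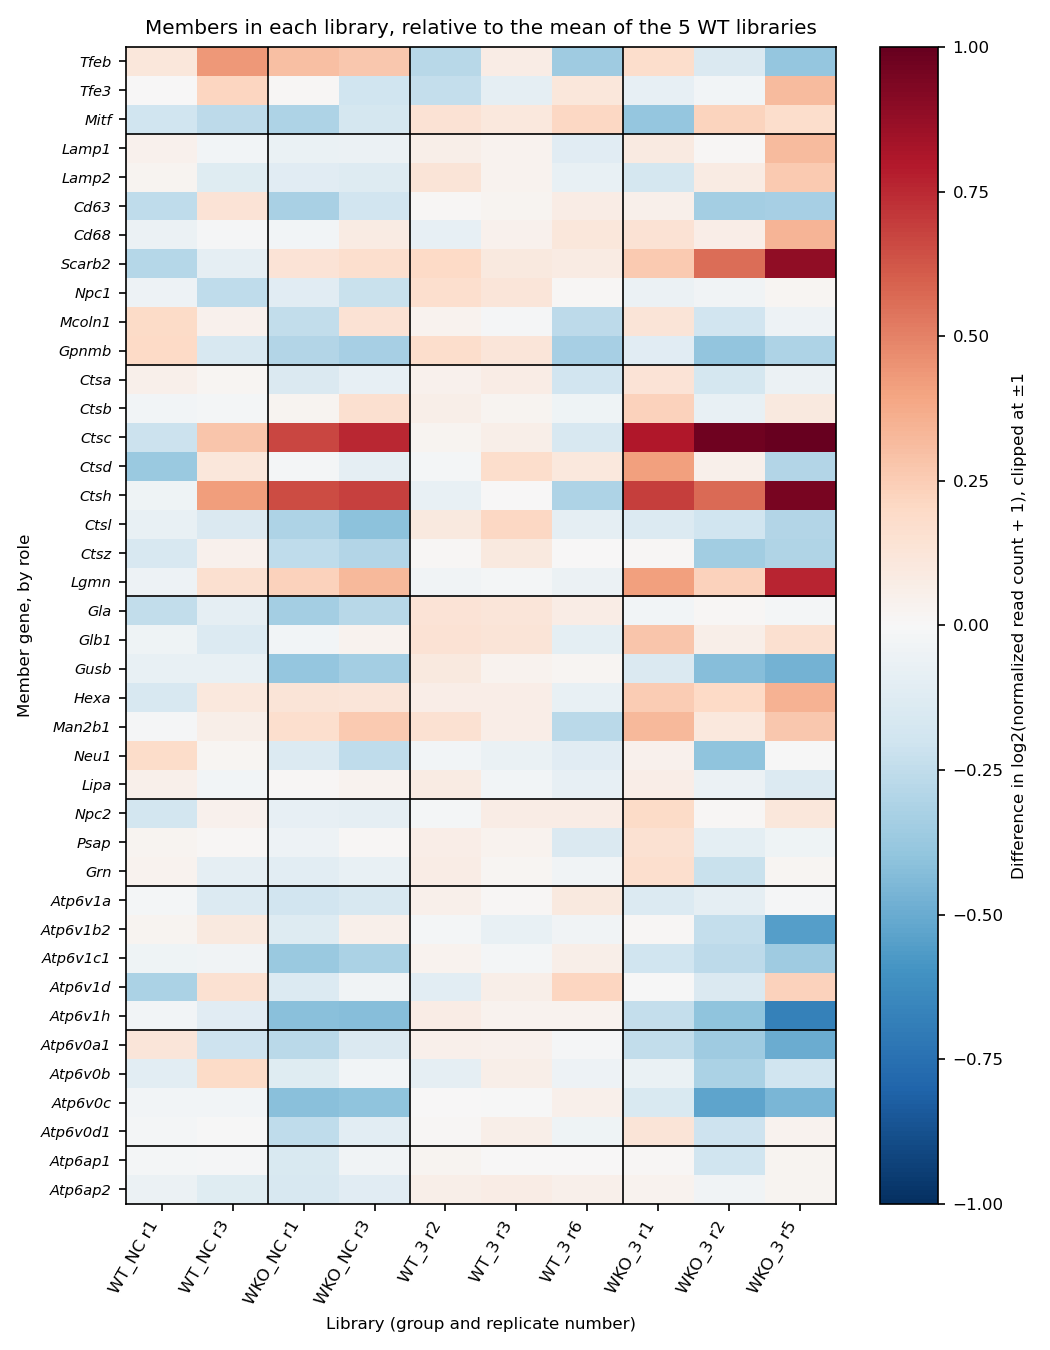
Each row is a lysosomal gene, grouped by role, and each column is a library (WT_NC and WKO_NC, unconfined; WT_3 and WKO_3, confined; r, replicate number). Colour is the difference in log2(normalized read count + 1) from the mean of the 5 WT libraries, clipped at 1 in either direction. Ctsc and Ctsh are red in all WKO columns, and several V-ATPase rows are blue there, while Psap, Lipa and Grn stay pale across all libraries.

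Promoters are shown for 5 of these genes whose promoters hold a sequence known to be read by the factors that open the list. TCACGTG, or its reverse complement CACGTGA, was searched on both strands in the 250 bases before each transcription start in the RefSeq promoter table for GRCm38.p6. RefSeq promoters matched 34 of the 40 genes by symbol. Ctsb, Ctsh, Npc1, Atp6v1b2, Atp6v1c1 and Atp6v1h had none. The sequence was present for 9 of 34 genes (26.5%), namely Gla, Lamp1, Mcoln1, Ctsa, Ctsd, Lgmn, Glb1, Atp6v1a and Atp6v0b, and for 968 of all 27025 genes in the table (3.58%). Its core CACGTG, which every TCACGTG contains, was present for 10 of 34 (29.4%) and 6.86% of all genes. A match is a description of the letters and not a measured binding site. The stretches below run 5′ to 3′ on the strand of the gene. They lie at chrX:134601173-134601253 (Gla, minus strand), chr8:13159079-13159160 (Lamp1, plus), chr8:3500427-3500500 (Mcoln1, plus), chr16:44139364-44139411 (Atp6v1a, minus) and chr4:117887330-117887386 (Atp6v0b, minus), and capitals mark TCACGTG or CACGTGA.
Gla: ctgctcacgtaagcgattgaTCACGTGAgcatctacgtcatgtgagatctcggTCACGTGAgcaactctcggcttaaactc
Lamp1: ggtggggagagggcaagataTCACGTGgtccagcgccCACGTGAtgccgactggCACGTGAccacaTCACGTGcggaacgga
Mcoln1: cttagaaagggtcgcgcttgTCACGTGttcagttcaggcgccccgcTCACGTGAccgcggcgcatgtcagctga
Atp6v1a: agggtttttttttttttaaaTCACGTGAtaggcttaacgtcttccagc
Atp6v0b: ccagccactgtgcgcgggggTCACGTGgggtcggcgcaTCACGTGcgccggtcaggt
Lamp1, which encodes the main glycoprotein of the lysosome membrane, holds 4 copies within 82 bases. Gla, which encodes alpha-galactosidase A and is taken up again with the confinement results, holds 2 copies, each read as TCACGTGA.

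Without WASp, 6 of the 40 lysosomal genes (15.0%) changed when the genotype difference was averaged over both conditions, against 5.57% of all genes tested. The protease genes Ctsc and Ctsh were higher (background 2.9%). The V-ATPase genes Atp6v1h, Atp6v0c and Atp6v1c1 and the beta-glucuronidase gene Gusb were lower (background 2.67%). In confined cells alone 3 of 40 passed (7.5%, background 2.59%): Ctsc and Ctsh higher (background 1.38%) and Atp6v1h lower (background 1.2%). In unconfined cells alone 0 of 40 passed (background 0.145%), while 6 had an unadjusted p under 0.05, against 9.6% of all genes. Tests on recovered reads called 0, 2 and 6 genes with edgeR and 0, 9 and 10 with DESeq2 for unconfined, confined and averaged cells. The unconfined contrast rests on 2 libraries against 2.

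The list as a whole had no common direction. The median log2 difference between genotypes was -0.06 on average over conditions, against 0.003 for all genes, with 27 of 40 fitted lower and 49.3% of all genes fitted lower. Libraries of the 2 genotypes did not overlap for 4 genes whose WKO values lay above (Ctsc, Ctsh, Lgmn and Hexa; background 3.38%) and for 4 whose WKO values lay below (Gusb, Atp6v1c1, Atp6v1h and Atp6v0c; background 3.33%). The unconfined and the confined difference share no library. The fitted direction was the same in both for 32 of 40 genes (80.0%), against 67.9% of all genes. The averaged count depended on single libraries: it was 1 without WT unconfined replicate 1 or without WKO unconfined replicate 3, 2 without WKO unconfined replicate 1 or WT confined replicate 2, 3 without WT unconfined replicate 3, and 10 without WKO confined replicate 1. The confined count was 0 without WT confined replicate 2, 1 without WT confined replicate 3 or 6, and 9 without WKO confined replicate 1.

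**Figure D2:**
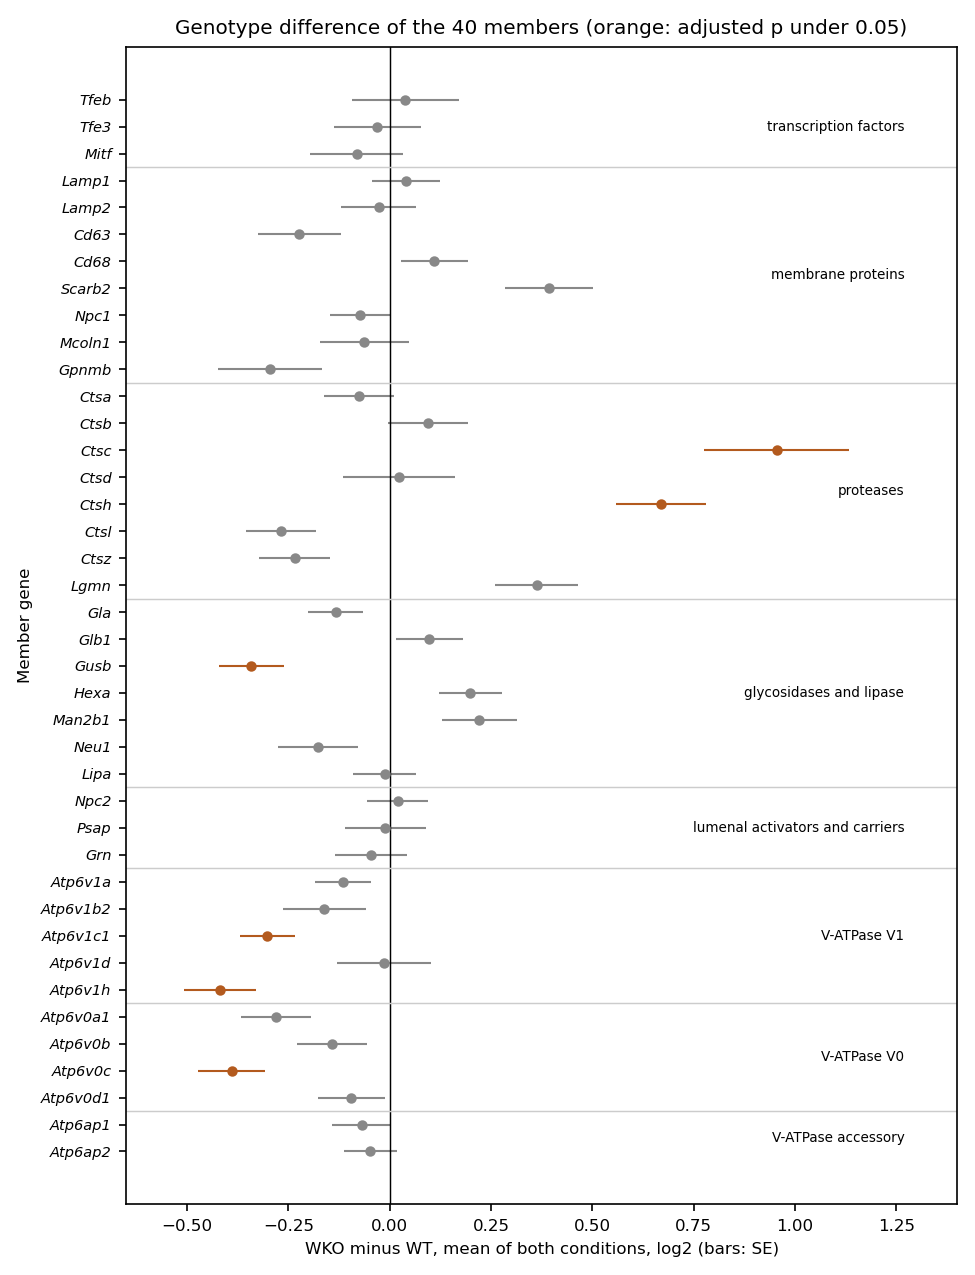
Points give the fitted WKO minus WT difference of each of the 40 genes in log2 units, averaged over unconfined and confined cells, with bars for the standard error; genes are grouped by role, and orange marks an adjusted p under 0.05. Ctsc (0.95) and Ctsh (0.67) lie farthest to the right, and the V-ATPase genes all lie at or left of 0.

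Ctsc encodes cathepsin C, the dipeptidyl peptidase that activates granule serine proteases. Its normalized count was 1946 and 2726 in WT unconfined libraries, 3573 and 3800 in WKO unconfined libraries, 2301, 2351 and 2020 in WT confined libraries, and 3926, 4426 and 8160 in WKO confined libraries. All 5 WKO libraries were above all 5 WT libraries, and WKO confined replicate 5 stood far above the rest. Group means were 2336 ± 552 in WT and 3687 ± 160 in WKO unconfined cells (SD, n = 2), and 2224 ± 178 in WT and 5504 ± 2314 in WKO confined cells (SD, n = 3). The averaged log2 difference was 0.95 (SE 0.18, adjusted p = 0.0110), a 1.94-fold difference. In confined cells it was 1.23 (SE 0.23, adjusted p = 0.0171), and in unconfined cells 0.68 (SE 0.28, adjusted p = 0.462). Without WKO confined replicate 5 the averaged difference was 0.79 (adjusted p = 0.000584) and the confined one 0.91 (adjusted p = 0.00355). The averaged call ended without WT unconfined replicate 1 (adjusted p = 0.0699) or WKO unconfined replicate 3 (adjusted p = 0.0675), and the confined call ended without any 1 of the WT confined replicates 2, 3 and 6 (adjusted p = 0.0654, 0.0681 and 0.0663).

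Ctsh encodes cathepsin H, a cysteine aminopeptidase. Its counts were 2267 and 3119 in WT unconfined, 3669 and 3740 in WKO unconfined, 2221, 2337 and 1887 in WT confined, and 3775, 3459 and 4502 in WKO confined libraries. Again all WKO libraries were above all WT libraries, and here no library stood far apart. The averaged log2 difference was 0.67 (SE 0.11, adjusted p = 0.00609), or 1.59-fold, and it passed without each of the 10 libraries in turn (0.62 without WKO confined replicate 5, adjusted p = 0.00273). The confined difference was 0.86 (SE 0.14, adjusted p = 0.0110), which ended without WT confined replicate 2 (adjusted p = 0.0514). In unconfined cells the difference was 0.48 (SE 0.17, adjusted p = 0.381).

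Genes of other cell types moved with genotype as well. The summed count of 13 neutrophil and progenitor markers was 2707 to 11007 in WT and 7087 to 30319 in WKO, and that of 8 B lineage markers was 423 to 1065 in WT and 1834 to 6538 in WKO. The summed count of 12 stromal markers was 235 to 1915 in WT and 887 to 10702 in WKO. Among WKO libraries, confined replicate 5 had the highest Ctsc and Ctsh, the lowest neutrophil and progenitor sum (7087) and the highest stromal sum (10702). The part of these cells in the Ctsc and Ctsh differences was not tested.

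The other 6 proteases did not pass. Lgmn, which encodes legumain, an asparaginyl endopeptidase that processes cathepsins, was 18567 and 21431 in WT unconfined, 22474 and 24094 in WKO unconfined, 18752, 18976 and 18455 in WT confined, and 25550, 22514 and 32563 in WKO confined libraries. The genotypes did not overlap, but the averaged log2 difference of 0.36 had an adjusted p of 0.0622. Ctsl, a cathepsin with broad endopeptidase activity, had an averaged difference of -0.27 (adjusted p = 0.0993), and the carboxypeptidase cathepsin gene Ctsz one of -0.23 (adjusted p = 0.153). Ctsa, Ctsb and Ctsd lay between -0.08 and 0.09. Fitted protease differences thus ran from -0.27 to 0.95 within 1 class of enzyme, with 5 of 8 above 0 and a median of 0.06. Counts of Ctsd and Ctsl carry an added doubt, because Gm49369 and Gm47123 cover 38.0% and 28.6% of their longest transcripts at 95% identity or more.

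Among the glycosidases and the lipase, 1 of 7 changed with genotype. Gusb encodes beta-glucuronidase, which trims glycosaminoglycans. It was 13068 and 13066 in WT unconfined libraries, 10543 and 10922 in WKO unconfined libraries, 14795, 14101 and 14008 in WT confined libraries, and 12510, 10247 and 9952 in WKO confined libraries. Every WKO value was below every WT value, and the averaged difference was -0.34 (SE 0.08, adjusted p = 0.0306). That call ended without any 1 of 8 libraries, all but WKO confined replicates 1 and 5 (adjusted p = 0.0588 to 0.127). Hexa, which encodes a beta-hexosaminidase subunit, was 12168 to 14624 over WT and 14763 to 17292 over WKO libraries without overlap, with a difference of 0.20 that did not pass (adjusted p = 0.175). Lipa, the acid lipase that frees cholesterol from lipoprotein esters, was 33256 to 38861 over all libraries, with a difference of -0.01 (SE 0.08).

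Membrane proteins, lumenal carriers and regulators held no gene that passed for genotype: 0 of 8, 0 of 3 and 0 of 3. Scarb2, which encodes the receptor that brings glucocerebrosidase to lysosomes, was 2624 and 2998 in WT unconfined, 3513 and 3593 in WKO unconfined, 3660, 3422 and 3381 in WT confined, and 3833, 4712 and 5921 in WKO confined libraries. WKO values lay above WT values within each condition, and the averaged difference was 0.39 (SE 0.11, adjusted p = 0.0600). Gpnmb had a difference of -0.30 (SE 0.13, adjusted p = 0.225), and the tetraspanin gene Cd63 one of -0.22 (adjusted p = 0.250). For Lamp1, Lamp2, Psap, Grn and the cholesterol carrier gene Npc2 the fitted difference was between -0.05 and 0.04. For Tfeb, Tfe3 and Mitf it was 0.04, -0.03 and -0.08, with standard errors of 0.13, 0.11 and 0.12.

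**Figure D3:**
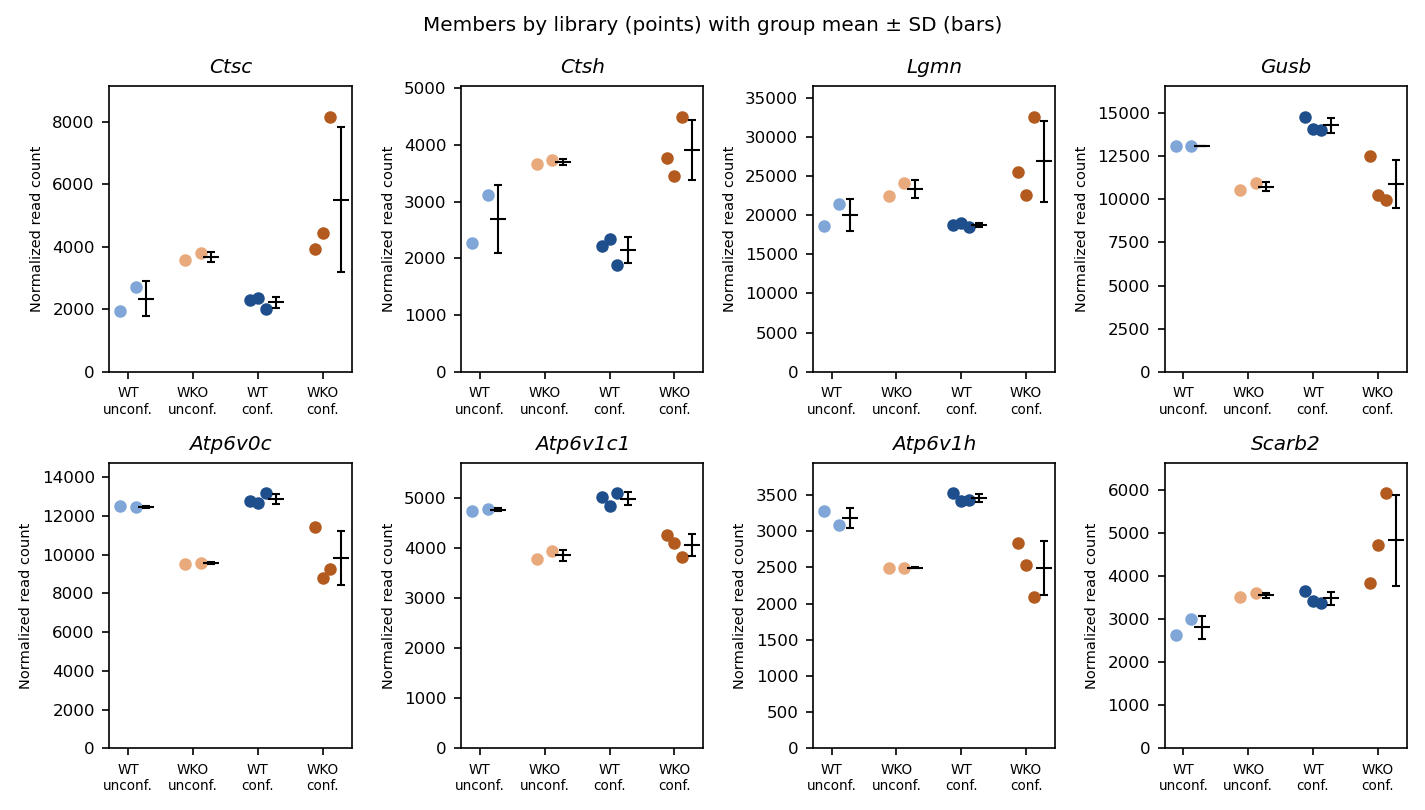
Points are the normalized read counts of 8 genes in each library and bars are group means ± SD (conf., confined; unconf., unconfined; n = 2 unconfined and 3 confined libraries per genotype). WKO points of Ctsc, Ctsh and Lgmn lie above and those of Gusb, Atp6v0c, Atp6v1c1 and Atp6v1h below all WT points, and the WKO confined libraries of Ctsc spread from 3926 to 8160.

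The V-ATPase genes lay on the low side in WKO. Of these genes 11 of 11 were fitted lower in WKO on average over conditions (background 49.3%), with a median of -0.14. The same count held with TMM and upper-quartile scaling, and it was 10 of 11 with the replicate block and without WT unconfined replicate 3, WKO unconfined replicate 1, WT confined replicate 6 or WKO confined replicate 2, with Atp6v1d above 0 each time. In unconfined cells 11 of 11 were fitted lower (background 49.7%; 10 of 11 with TMM or upper-quartile scaling, where Atp6v1d was at or above 0; 10 without WKO unconfined replicate 1 and 9 without WT unconfined replicate 3), with a median of -0.12 (-0.08 and -0.19 without WKO unconfined replicate 1 or 3). In confined cells 11 of 11 were fitted lower (background 49.4%; 10 with the replicate block or without WT confined replicate 3 or 6, and 8 without WKO confined replicate 2), with a median of -0.17 (-0.11 with the replicate block). WKO libraries lay below WT libraries without overlap for 6 of the 11 in unconfined (background 22.7%) and 6 in confined cells (background 10.4%). The other 29 lysosomal genes split into 13 above and 16 below 0, with a median of -0.01. The 11 genes took 0.473% to 0.632% of all reads of a library. Their summed count was 89853 to 94500 in WT and 76414 to 86761 in WKO libraries, which did not overlap. The sizes were modest, and 3 of 11 passed on average over conditions (background for lower genes 2.67%), 1 in confined (1.2%) and 0 in unconfined cells (0.0963%). The averaged count was 0 without WT unconfined replicate 1, either WKO unconfined replicate or WT confined replicate 2, and 1 without WT unconfined replicate 3.

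Of the V1 genes, Atp6v1h encodes subunit H, which regulates the coupling of V1 to V0. Its counts were 3275 and 3088 in WT unconfined, 2497 and 2491 in WKO unconfined, 3525, 3420 and 3426 in WT confined, and 2835, 2532 and 2092 in WKO confined libraries. WT and WKO did not overlap. The averaged difference was -0.42 (SE 0.09, adjusted p = 0.0192), a 0.748-fold level. Without WT unconfined replicate 1, WKO unconfined replicate 1 or 3, or WT confined replicate 2, the adjusted p was 0.0892, 0.0793, 0.0982 or 0.0513. The confined difference of -0.49 (SE 0.11, adjusted p = 0.0434) was a weak call, since edgeR did not call it and leaving out any 1 library other than WKO confined replicate 1 ended it (adjusted p = 0.0568 to 0.152). Its exons share 127 bases with those of Rgs20, and the use of strand in counting is not given in the sources used here.

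Atp6v1c1, which encodes the C1 subunit of the stalk that links V1 to V0, was 4752 and 4790 in WT unconfined, 3784 and 3935 in WKO unconfined, 5028, 4841 and 5100 in WT confined, and 4266, 4093 and 3822 in WKO confined libraries. The genotypes were again apart, with an averaged difference of -0.30 (SE 0.07, adjusted p = 0.0251). It was of like size in unconfined (-0.31) and confined cells (-0.30). The call ended without any 1 of the 4 unconfined and 3 WT confined libraries (adjusted p = 0.0558 to 0.115). The other V1 genes did not pass: Atp6v1a and Atp6v1b2, which encode the catalytic and the nucleotide-binding subunit, had differences of -0.12 and -0.16, and Atp6v1d, of the central stalk, -0.01.

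In the V0 sector, Atp6v0c encodes the proteolipid that forms most of the proton-carrying ring. Its counts were 12499 and 12443 in WT unconfined, 9522 and 9599 in WKO unconfined, 12775, 12665 and 13183 in WT confined, and 11439, 8799 and 9282 in WKO confined libraries. The highest WKO library lay below the lowest WT library. The averaged difference was -0.39 (SE 0.08, adjusted p = 0.0200), that is, -0.38 in unconfined and -0.40 in confined cells. The averaged call ended without WT unconfined replicate 1 or 3, WKO unconfined replicate 1 or 3, or WT confined replicate 2 (adjusted p = 0.0802, 0.0569, 0.0865, 0.103 and 0.0506). The same held with no filter on low values (adjusted p = 0.0561) and with no mean-variance trend (adjusted p = 0.0719). Atp6v0a1, a subunit that lines the proton path, was 15772 and 19757 in WT unconfined, 15103 and 16409 in WKO unconfined, 18051 to 18823 in WT confined and 12846 to 15286 in WKO confined libraries. Its difference of -0.40 in confined and -0.28 on average did not pass (adjusted p = 0.0813 and 0.0852). Atp6v0b, Atp6v0d1, Atp6ap1 and Atp6ap2 had averaged differences between -0.14 and -0.05. The last pair are accessory subunits needed for assembly of the pump.

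Counting all V-ATPase genes of the mouse that were listed, 19 of 25 were tested. Of those 19, 16 were fitted lower in WKO on average (background 49.3%), and 4 passed, all lower (background 2.67%). These 19 include the 11 genes above, of which 11 were fitted lower and 3 passed, so the wider count is not a separate result. Every V-ATPase gene not fitted lower was among those added. The fourth gene to pass was Tcirg1, which encodes the a3 form of the proton path subunit, known for its part in osteoclasts and in lysosomes of phagocytes. It was 15751 and 14492 in WT unconfined, 11004 and 11508 in WKO unconfined, 12742, 12917 and 11766 in WT confined, and 11040, 8790 and 10161 in WKO confined libraries, with an averaged difference of -0.37 (SE 0.08, adjusted p = 0.0224). Leaving out WT unconfined replicate 1, WKO unconfined replicate 1 or 3, or WT confined replicate 2 or 3 ended that call (adjusted p = 0.0603 to 0.103). Atp6v0d2, the d2 form found in osteoclasts and some macrophages, had the highest level per kilobase of the V-ATPase genes (4324 ± 280, SD, n = 10), and its genotype difference was 0.03 (adjusted p = 0.890). Forms known from kidney, testis or other epithelia, Atp6v1b1, Atp6v1c2, Atp6v1e2, Atp6v1g3 and Atp6v0a4, were listed at 0 in all libraries, and Atp6v0e2 had a mean of 3.23. The summed count of 8 osteoclast markers was 4080 to 6527 in WT and 2632 to 3057 in WKO, and Mmp9 was the largest part of the WT spread (1605 to 4391 in WT, 482 to 1458 in WKO). Dcstamp (184 to 345 against 49.4 to 106) and Ctsk also lay lower in WKO without overlap, while Nfatc1 (760 to 1004 against 828 to 1348) and Acp5 (303 to 1048 against 468 to 758) overlapped. Of the markers that define osteoclasts, Calcr was at 0 in all libraries and Oscar was 0 to 3.10. The part of such cells in the V-ATPase difference was not tested.

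**Figure D4:**
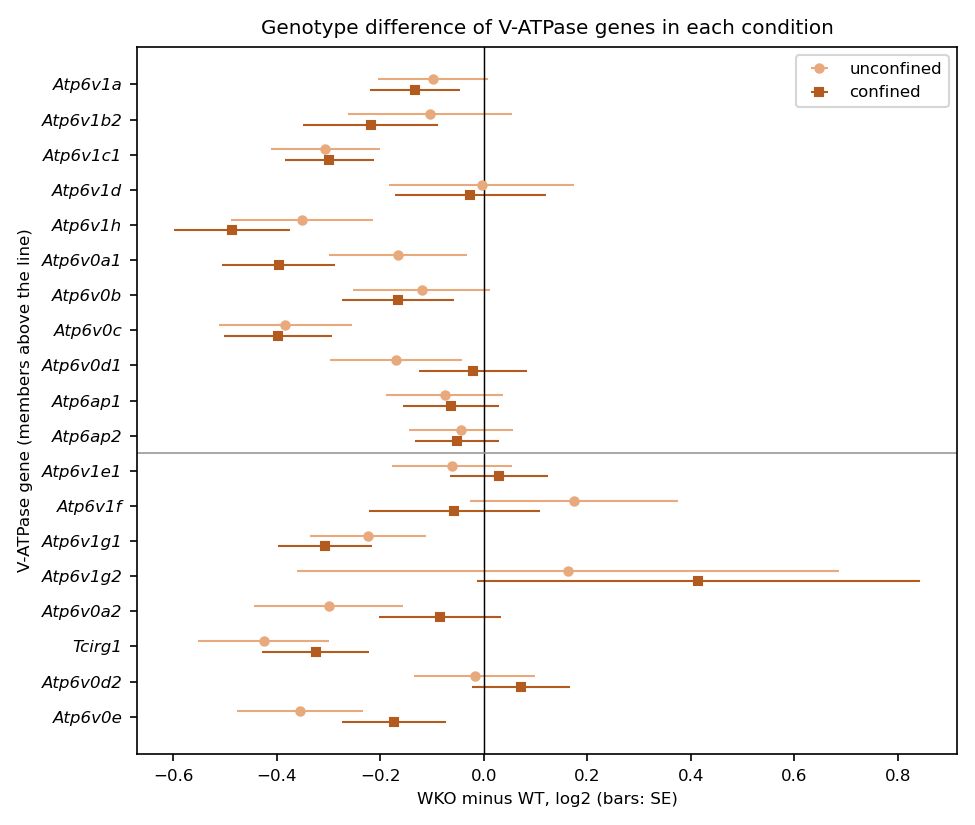
The fitted WKO minus WT difference in log2 units is shown for each tested V-ATPase gene in unconfined (circles) and confined cells (squares), with bars for the standard error. The 11 genes of the list, above the line, all lie at or left of 0 with the deposited scaling (with TMM or upper-quartile scaling Atp6v1d moves to the other side in unconfined cells); below the line, Tcirg1 lies at the left and Atp6v0d2 near 0.

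Coordinates of the genes that passed follow GENCODE M21 on GRCm38. Ctsc lies on chromosome 7 from 88278085 to 88310888, and Ctsh on chromosome 9 from 90054152 to 90076089. Gusb lies on chromosome 5 from 129989011 to 130003049. Atp6v1h lies on chromosome 1 from 5070018 to 5162529, Atp6v1c1 on chromosome 15 from 38661933 to 38692446, and Atp6v0c on chromosome 17 from 24163866 to 24169702. They are thus on 6 different chromosomes. RefSeq held promoters for Ctsc, Gusb and Atp6v0c, and none of these has TCACGTG or CACGTGA in the 250 bases before the start. Their last 100 bases before the start lie at chr7:88277985-88278084 (Ctsc, plus strand), chr5:130003050-130003149 (Gusb, minus) and chr17:24169679-24169778 (Atp6v0c, minus), and are printed to set beside the stretches given earlier.
Ctsc: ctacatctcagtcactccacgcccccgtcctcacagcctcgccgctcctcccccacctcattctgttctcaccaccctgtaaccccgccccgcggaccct
Gusb: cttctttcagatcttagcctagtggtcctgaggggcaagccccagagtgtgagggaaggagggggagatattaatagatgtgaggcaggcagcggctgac
Atp6v0c: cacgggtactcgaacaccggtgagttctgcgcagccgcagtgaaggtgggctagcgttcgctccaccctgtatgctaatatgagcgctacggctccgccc

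Few lysosomal transcripts passed the threshold for confinement of 1 h, with 2 or 3 libraries per group. In WT cells 0 of 40 genes passed (background 1.16%; 4 with an unadjusted p under 0.05, background 12.2%), and in WKO cells 0 of 40 (background 1.72%; 2 unadjusted, background 14.1%). Averaged over genotypes, 1 of 40 passed (2.5%, background 6.21%), Gla, which was higher (background for higher genes 4.13%). Tests on recovered reads called 0, 0 and 1 genes with edgeR and 0, 0 and 3 with DESeq2. The averaged count was 4 without WKO confined replicate 1, 1 without WT unconfined replicate 3 or WKO confined replicate 5, and 0 without any other library. The median log2 difference of the 40 genes was 0.07, against -0.02 for all genes, with 29 of 40 fitted higher (background 47.3%). With upper-quartile scaling both medians moved down, to -0.02 for the 40 genes and -0.10 for all genes, so the sign of the members' median depends on the scaling. Libraries of the 2 conditions did not overlap for 2 genes whose confined values lay above, Gla and Atp6ap2 (background 4.46%), and for 0 whose values lay below (background 2.93%).

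Gla encodes alpha-galactosidase A, the hydrolase missing in Fabry disease. It was 2837 and 3153 in WT unconfined, 2651 and 2774 in WKO unconfined, 3694, 3643 and 3541 in WT confined, and 3294, 3375 and 3307 in WKO confined libraries. Every confined library was above every unconfined one. Group means were 2995 ± 223 and 2712 ± 87.0 unconfined (SD, n = 2) and 3626 ± 77.7 and 3326 ± 43.5 confined (SD, n = 3), for WT and WKO. The log2 difference was 0.28 in WT and 0.29 in WKO (adjusted p = 0.246 and 0.184), and 0.29 on average (SE 0.07, adjusted p = 0.0316). The averaged call ended with upper-quartile scaling (0.20, adjusted p = 0.110) and with no filter on low values (adjusted p = 0.0552). The call was also lost with no mean-variance trend and with the replicate block, and the highest adjusted p over the 4 settings was 0.270. Leaving out any 1 of 7 libraries ended it too, all but WT unconfined replicate 3 and WKO confined replicates 1 and 5 (adjusted p = 0.0606 to 0.139). Gla lies on chromosome X from 134588149 to 134601125 in GRCm38 (GENCODE M21), and its promoter is the first stretch printed above.

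The 3 regulators did not move together. Tfeb was 716 and 895 in WT unconfined, 814 and 799 in WKO unconfined, 546, 698 and 518 in WT confined, and 749, 598 and 507 in WKO confined libraries. All confined values lay below the unconfined ones within each genotype, though the 2 conditions overlapped across genotypes. The averaged difference was -0.43 (SE 0.13, adjusted p = 0.0804). It passed with upper-quartile scaling (-0.52, adjusted p = 0.0473), with DESeq2 (adjusted p = 0.0409) and without WKO confined replicate 1 (-0.50, adjusted p = 0.0160). With the replicate block the averaged Tfeb difference was -0.15 (adjusted p = 0.756). In that fit WT confined replicate 6 and WKO confined replicate 5 add nothing, since no other library has their number. Mitf was 1498 and 1565 in WT unconfined and 1932 to 2070 in WT confined libraries, but 1372, 2092 and 2027 in WKO confined against 1449 and 1588 in WKO unconfined libraries, with an averaged difference of 0.31 (adjusted p = 0.137). Tfe3 had an averaged difference of -0.01 (SE 0.11).

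Among the remaining genes, Scarb2 had the next smallest p for confinement. Its averaged difference was 0.37 (SE 0.11, adjusted p = 0.0740), that is, 0.31 in WT and 0.42 in WKO cells. It passed with DESeq2 (adjusted p = 0.0244) and without WKO confined replicate 1 (0.44, adjusted p = 0.00525), and was 0.29 without WKO confined replicate 5 and 0.20 with the replicate block (adjusted p = 0.507). Npc1, which exports cholesterol from lysosomes, was 7419 and 6429 in WT unconfined and 8632, 8361 and 7753 in WT confined libraries, with a WT difference of 0.25 (adjusted p = 0.346). The 11 V-ATPase genes had a median of 0.06 in WT and 0.04 in WKO cells, and 0 passed. No protease and no lumenal carrier passed for confinement, and protease differences ran from -0.12 to 0.22 on average.

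**Figure D5:**
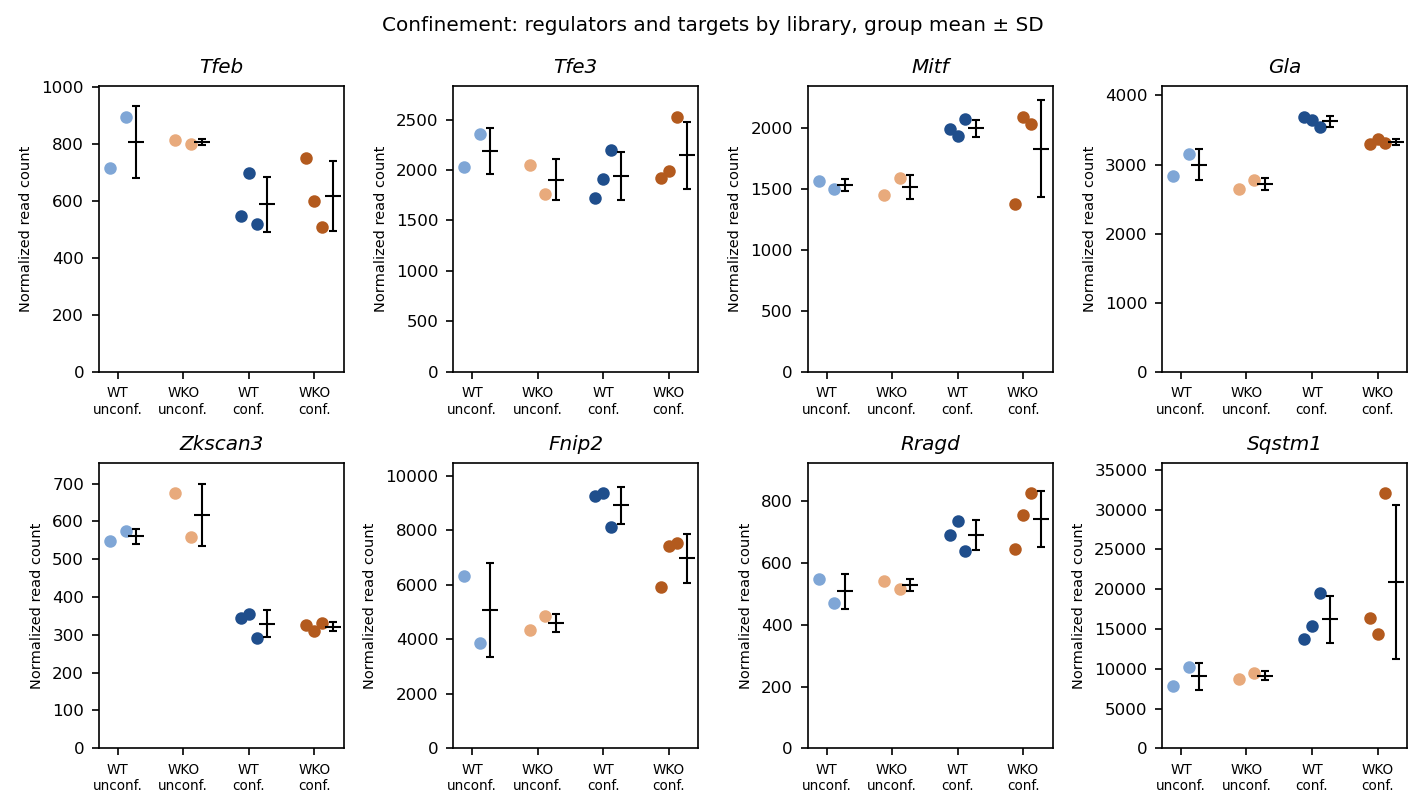
Points are normalized read counts by library and bars are group means ± SD (conf., confined; unconf., unconfined) for the regulators Tfeb, Tfe3 and Mitf, for Gla, and for 4 other genes of the pathway. Gla, Rragd and Sqstm1 are higher and Zkscan3 is lower in all confined libraries, while Tfe3 overlaps across all groups.

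The effect of confinement was also compared between genotypes. The interaction, the confinement difference in WKO minus that in WT, passed for 0 of 40 genes and for 0 of all genes (background 0%). With limma 0 of 40 had an unadjusted p under 0.05, against 2.07% of all genes, and edgeR and DESeq2 called 0 of 40 each. The smallest p-values belonged to Ctsh (0.38, SE 0.22), Tfe3 (0.34, SE 0.21) and Ctsc (0.55, SE 0.36), each with an adjusted p of 0.999. Without WKO confined replicate 5 the Ctsc value was 0.23.

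Around the 40 genes, 101 other genes of the pathway were followed, of which 94 were tested. Averaged over conditions, 6 were higher and 4 lower in WKO (10.6% of 94, background 5.57%). In confined cells 1 was higher and 2 were lower (background 2.59%), and in unconfined cells 0 of 94 passed (background 0.145%). An unadjusted p under 0.05 was found there for 12 of 94, against 9.6% of all genes. Among enzymes, Ctsk, cathepsin K, was 308 and 342 in WT unconfined, 167 and 214 in WKO unconfined, 346, 282 and 282 in WT confined, and 176, 166 and 131 in WKO confined libraries, with an averaged difference of -0.86 (SE 0.14, adjusted p = 0.00525). Arsb, arylsulfatase B, was 1476 to 1927 in WT and 1172 to 1264 in WKO libraries, a difference of -0.49 (SE 0.08, adjusted p = 0.00591). Of its exon bases 39.9% overlap Gm47210 and Gm26527 on the opposite strand, whose reads cannot be told apart without strand. Both averaged differences passed without each library in turn. Galc, the galactosylceramidase gene (0.35, adjusted p = 0.0295), Ctse, an aspartic cathepsin at low counts of 14.5 to 77.4 (1.32, adjusted p = 0.0420), and Sort1, which encodes the sorting receptor sortilin (0.66, adjusted p = 0.0252), were higher in WKO. Each of these 3 calls ended without some single libraries. Leaving out 1 library ended that of Sort1 for each of the 4 unconfined libraries (adjusted p = 0.0563 to 0.117), that of Galc for WT unconfined replicate 1, both WKO unconfined replicates and WT confined replicates 3 and 6 (0.0592 to 0.132), and that of Ctse for the 4 unconfined libraries, WT confined replicates 2 and 6 and WKO confined replicate 2 (0.0650 to 0.164). In confined cells alone Ctsk (-0.94, adjusted p = 0.0176) and Arsb (-0.58, adjusted p = 0.0143) were lower. Both of these calls ended without WT confined replicate 2 or 3, and that of Ctsk also without replicate 6 (adjusted p = 0.0503 to 0.0876). Laptm4a, which encodes a lysosomal membrane protein, was higher there (0.44, adjusted p = 0.0477), a call that ended with TMM scaling (adjusted p = 0.0508) and without any 1 library other than WKO confined replicates 1 and 2 (adjusted p = 0.0677 to 0.187).

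For confinement averaged over genotypes, 5 of the 94 genes of the wider pathway passed (5.32%), a share below the background of 6.21%. Of these, 4 were higher (Fnip2, Sqstm1, Rragd and Igf2r) and 1 was lower, Zkscan3. In each genotype alone Zkscan3 was the 1 that passed (background 1.16% in WT and 1.72% in WKO cells). Zkscan3 encodes a zinc finger protein described as a repressor of autophagy and lysosomal genes. It was 547 and 575 in WT unconfined, 675 and 559 in WKO unconfined, 344, 355 and 291 in WT confined, and 325, 310 and 332 in WKO confined libraries. Confined and unconfined libraries did not overlap, and the averaged difference was -0.85 (SE 0.11, adjusted p = 0.000760), with -0.77 in WT (adjusted p = 0.0309) and -0.93 in WKO cells (adjusted p = 0.00908). The averaged call passed without each library in turn. The WT call ended without any 1 of the 5 WT libraries (adjusted p = 0.0808 to 0.231) and the WKO call without WKO unconfined replicate 1 (adjusted p = 0.170).

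Of the genes that were higher after confinement, Fnip2 and Rragd belong to the arm of mTORC1 control that acts on TFEB. Fnip2 encodes a partner of folliculin and was 6307 and 3869 in WT unconfined, 4358 and 4842 in WKO unconfined, 9254, 9360 and 8109 in WT confined, and 5923, 7435 and 7541 in WKO confined libraries. The highest unconfined library thus overlapped the lowest confined one across genotypes, and the averaged difference was 0.72 (SE 0.13, adjusted p = 0.00701). Rragd encodes the RagD GTPase and was 469 to 548 in unconfined and 640 to 827 in confined libraries, a difference of 0.46 (SE 0.10, adjusted p = 0.0211). Sqstm1, the autophagy receptor p62, was 7866 to 10251 in unconfined and 13759 to 32061 in confined libraries, a difference of 0.97 (SE 0.20, adjusted p = 0.0142), and 17.3% of its exon bases overlap Mrnip on the opposite strand. The adjusted p was 0.0516 for Fnip2 without WKO unconfined replicate 1, 0.0541 to 0.0785 for Sqstm1 without WT unconfined replicate 1 or WKO unconfined replicate 1 or 3, and 0.0559 to 0.0963 for Rragd without WT unconfined replicate 3, either WKO unconfined replicate, or WT confined replicate 2 or 3. The stromal sum, 235 to 2916 over both genotypes apart from the WKO confined libraries, reached 10702 in WKO confined replicate 5, which also had the highest Sqstm1. Without that library the averaged difference of Sqstm1 was 0.79 (adjusted p = 0.000680). Igf2r, which encodes the receptor that carries mannose 6-phosphate enzymes to lysosomes, had an averaged difference of 0.40 (adjusted p = 0.0231). The Igf2r call was not followed under the alternative settings or with libraries left out.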

How the data were processed

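Normalized read counts, here called the signal of a gene, were deposited by the authors for the 10 libraries. FastQC, Trim Galore, STAR and the builds GRCm38 and mm10 are named, per the submitters' processing notes; the counter, annotation and use of strand are not given in the sources used here. In each library 100% of values above 0 were whole multiples of 1 read (relative tolerance 1e-06), so whole reads were recovered. Gene symbols are those of the deposited table where it gives one. Otherwise a reference list of gene names was used, or the gene identifier itself. Genes with a mean of at least 10 were tested as log2(signal + 1) with limma 3.58.1 in R 4.3.3: 1 mean per group, all 10 libraries, 6 residual degrees of freedom, empirical Bayes with a mean-variance trend. P-values were adjusted by Benjamini-Hochberg across the 12455 genes in each contrast (threshold 0.05); there were 7 contrasts, and those averaged over conditions or genotypes weight both equally. Log2 differences are on the log2(value + 1) scale. The code was tested on simulated data.

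Alternatives were pseudocounts, filters, TMM and upper-quartile scaling, edgeR 4.0.16 and DESeq2 1.42.0 on recovered reads, no trend, library weights, only the groups compared, a replicate block and each library left out. The replicate block fits a term for each replicate number. No other library shares the number of WT confined replicate 6 or WKO confined replicate 5, so these libraries add nothing to its contrasts. Replicates differed by more than sampling noise (chi-square per degree of freedom 7.56 to 78.3), so none was treated as a repeat deposit, which does not show separate cultures. Of the members, 12 overlap an exon of another gene in GENCODE M21, and similar transcripts were sought with blastn 2.17.0 (at least 100 bases at 95% identity covering 20%). The members and lists were chosen with earlier results of these data known. Full values are given for members that passed, or the 3 with the smallest p where fewer than 3 passed, and for up to 3 passing pathway genes in each direction. Igf2r, a further passing pathway gene, was named outside this rule. Lgmn, Hexa, Lipa, Ctsl, Ctsz, Gpnmb, Cd63, Atp6v0a1, Atp6v0d2 and Mitf were chosen after their values were seen.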

Additional observations from a re-analysis of the deposited data

How the results depend on the processing

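The number of the 40 genes passing was the same as reported with pseudocounts of 0.5 or 5, a mean of at least 50 and TMM scaling in all 7 contrasts. With no filter on low values it fell to 2 (genotype, confined), 3 (genotype, averaged) and 0 (confinement, averaged). Upper-quartile scaling gave 2, 8 and 1 for these, and the 1 was Tfeb in place of Gla. With no mean-variance trend it was 0 (genotype, confined), 1 (genotype, averaged) and 0 (confinement, averaged). DESeq2 gave 9, 10 and 3 for the same 3 contrasts, and library weights gave 14, 14 and 5, with 3 for confinement in WKO. The weighted fit leaned on WKO confined replicate 2, with a weight of 3.74 against 0.28 and 0.32 for WKO confined replicates 1 and 5. With only the groups compared in the fit the number passing was 1 for genotype in confined cells and 1 for confinement in WT. Leaving out 1 library at a time gave 0 to 9 (genotype, confined), 1 to 10 (genotype, averaged), 0 to 2 (confinement in WKO) and 0 to 4 (confinement, averaged), and 0 to 0 in the other 3 contrasts. Pairing by replicate number was not seen: over 7 pairs with the same number the deviations from group means had correlations from -0.11 to 0.08. None was over 0.1, and 0 of 8 libraries correlated best with their own number. In the unconfined groups the deviations of the 2 libraries mirror each other, so this check cannot decide whether libraries were paired. With the replicate block 1 gene passed for genotype in unconfined cells, 2 in confined cells, 4 on average, and 0 for confinement averaged over genotypes. For the passing or smallest-p genes of each contrast, 0 of 516 values under these settings changed sign, 69 lost and 10 gained the call. Of 319 values of named pathway genes 0 changed sign and 75 lost the call. The causes of these changes were not tested. Both sets of genes were picked by p-values from these same libraries, so an unchanged sign is no separate support. Counts over all genes moved too: 18 genes (4 to 245 under the alternatives), 322 (53 to 1948) and 694 (360 to 1804) for genotype in unconfined cells, in confined cells and on average, and 144 (20 to 455), 214 (33 to 1735) and 773 (383 to 2220) for confinement in WT, in WKO and on average. The smallest difference of a member that passed was 0.29 on the log2 scale, with 2 or 3 libraries per group.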
